A study of Oryza sativa with 7 samples.

Results

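Bins of 100 bp that carried listed methylated cytosines (mCs) in every IR64 library and in no library of the other cultivars were collected from 7 bisulphite libraries of rice (Oryza sativa) seedlings. A bin of chromosomes 1 to 12 was chosen by its listed rows, as IR64-only, when each of the 3 IR64 libraries listed 3 or more mCs in it and none of the 4 libraries of N22 (Nagina 22) and Pokkali listed any. There were 25055 such bins among the 1159692 bins with 3 or more mCs in all 3 IR64 libraries (2.16%) and the 2273435 bins with any mC in any library. The libraries were IR64 desiccation, IR64 salinity, IR64 control, N22 desiccation, N22 control, Pokkali salinity and Pokkali control, each a single library. Desiccated seedlings lay on dry filter paper, salinity seedlings stood in a 200 mM salt solution and control seedlings received reverse osmosis water. IR64 is sensitive to drought and salinity, N22 tolerates drought and Pokkali tolerates salinity. DNA of 3 biological replicates was pooled for each control library, whereas the labels and the paper say nothing of pooling in the stressed ones. Without replicate libraries, the values carry counting error only.

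In plants, cytosines are methylated in the CG context by MET1, in CHG (H is A, C or T) by chromomethylases and in CHH by chromomethylases and the RNA-directed pathway. Transposons and repeats usually carry all these contexts, whereas many expressed genes carry CG methylation alone. The reads were placed on the reference of the japonica cultivar Nipponbare, so DNA that a cultivar lacks, or that differs too much for its reads to align, gives no mC there. The tables list methylated cytosines only, and an absent row in N22 and Pokkali can come from missing sequence, missing coverage or missing methylation, which cannot be told apart here. The listing defined the bins, and the contrast with N22 and Pokkali is therefore given as a description with no test.

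The 7 libraries listed between 14843198 and 18209800 mCs at 5 or more reads each, with a mean depth between 14.2 and 19.01 reads per mC on the 12 chromosomes. The number of methylated reads a call needed differed slightly between libraries. At a depth of 10 reads the lowest listed number was 2 in IR64 desiccation and IR64 control and 3 in IR64 salinity and every N22 and Pokkali library. At 20 reads the lowest listed number was 4 in N22 control and 3 in the other libraries, and at 40 reads it was 3 in IR64 desiccation and IR64 control and 4 in the others. When the IR64 cytosines were called again with an error rate of 1%, 23860 IR64-only bins were left.

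The IR64-only bins outnumbered the IR64 bins that a single N22 or Pokkali library listed. Of the 1159692 IR64 bins, 85.4% were listed in all 4 N22 and Pokkali libraries, 4.12% in 3, 7.35% in 2, 0.984% in 1 and 2.16% in none. Bins listed in both Pokkali libraries and in neither N22 library numbered 51399, and those listed in both N22 libraries and in neither Pokkali library numbered 28572. By the same rule 60216 bins were N22-only and 29381 were Pokkali-only, each of which used 2 libraries of the cultivar in place of 3. Just inside the limit, 3202 IR64-only bins had 3 mCs in the IR64 library with fewest, at a pooled CG level of 53.9% in IR64 control. Just outside it, 9103 bins had 2 mCs in that library, at 58.2%. On the other side of the rule, 3410 bins had a single row over the N22 and Pokkali libraries, at 70.5%.

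The IR64-only bins held a larger share of CG and a smaller share of CHH mCs than the 892512 bins with 3 or more mCs in all 7 libraries. The CG share of mCs in IR64-only bins was 51.1% in IR64 desiccation, 51.7% in IR64 salinity and 50.6% in IR64 control (95% Wilson interval 50.5 to 50.8), against 45.2%, 46.0% and 45.03% over the bins listed in all 7 libraries. The CHH share in IR64-only bins was 18.4%, 17.8% and 18.6%, against 25.1%, 24.2% and 25.2% in bins listed in all 7 libraries. The CHG shares were close, with 30.5% to 30.8% in IR64-only bins and 29.7% to 29.8% in bins listed in all 7 libraries. An IR64-only bin held on average 11.8 mCs in IR64 desiccation, 11.0 in IR64 salinity and 10.7 in IR64 control, against 13.001, 12.4 and 12.4 in bins listed in all 7 libraries.

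The other cultivar-only sets had make-ups of the same direction. The CG share of mCs in N22-only bins was 50.6% in N22 desiccation and 51.9% in N22 control, against 46.1% and 46.5% in bins listed in all 7 libraries. In Pokkali-only bins it was 55.3% in Pokkali salinity and 54.4% in Pokkali control, against 46.3% and 45.2% in bins listed in all 7 libraries. Their CHH shares were likewise lower, with 15.4% and 14.3% in N22-only bins, against 23.2% and 22.5%, and 15.7% and 16.9% in Pokkali-only bins, against 23.7% and 25.4%.

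Over listed mCs, the IR64-only bins had a lower CG level and a higher CHH level than the bins listed in all 7 libraries. A pooled level gives methylated reads as a percent of the reads summed over listed mCs. Unlisted cytosines are left out, and CHH mCs were a smaller share in IR64-only bins. The higher CHH level therefore does not mean more CHH methylation in the whole bin. The CG level of IR64-only bins was 78.9% in IR64 desiccation, 80.1% in IR64 salinity and 77.9% (77.8 to 77.9) in IR64 control, against 84.9%, 85.7% and 85.03% in bins listed in all 7 libraries. The CHH level was 37.2%, 39.7% and 36.7% in IR64-only bins, against 30.8%, 33.3% and 31.0%. The CHG level differed by less than 1 point in each library, with 61.7%, 62.8% and 61.6% in IR64-only bins, against 61.4%, 62.8% and 62.5%. The IR64-only bins were also covered by fewer reads. Their mean depth was 13.3 in IR64 desiccation, 11.9 in IR64 salinity and 13.4 in IR64 control, or 0.848, 0.835 and 0.833 of the mean of the library, against 1.10, 1.08 and 1.06 in bins listed in all 7 libraries. The part of depth in the differences of level was not tested. The difference in CG level in IR64 control was -7.17 points. It was -9.06 points with IR64 mCs of 10 or more reads, and -3.83 points where 5 or more mCs per IR64 library were required in place of 3. Over bins with 2 or more CG mCs the median level in IR64 control was 90.7% in IR64-only bins, against 92.1% in bins listed in all 7 libraries. The CG level was lower in the other cultivar-only sets as well, and in N22-only bins it was 76.8% in N22 desiccation and 84.4% in N22 control, against 86.7% and 88.5% in bins listed in all 7 libraries. In Pokkali-only bins it was 49.6% in Pokkali salinity and 52.5% in Pokkali control, against 85.5% and 85.9% in bins listed in all 7 libraries. The CHH level was likewise higher in these sets. It was 37.4% and 39.2% in N22-only bins, against 32.9% and 34.5%, and 39.2% and 33.6% in Pokkali-only bins, against 33.2% and 30.5%. Depth was 0.848 and 0.857 of the mean of the library in N22-only bins, but 1.08 and 1.05 in Pokkali-only bins.

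Runs of consecutive IR64-only bins were mostly short. The 25055 bins formed 12466 runs, of which 7753 were isolated bins (30.9% of the bins), 3764 were runs of 2 to 4 bins (38.7%) and 949 were runs of 5 or more (7597 bins, 30.3%). There were 195 runs of 10 or more bins and 27 of 20 or more, and the longest was 78 bins. Isolated bins made up 25.7% of N22-only and 32.3% of Pokkali-only bins, and runs of 5 or more made up 35.6% and 31.2%. Among the bins listed in all 7 libraries 14.3% were isolated and 50.8% were in runs of 5 or more, with a longest run of 368 bins. Where every gap of 1 bin between IR64-only bins was bridged, 43.4% of the IR64-only bins were in runs of 5 or more. The bridged bins counted toward the length of a run there.

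Isolated bins and runs of 5 or more differed in context make-up in every IR64 library. Bins with CG mCs alone made up 37.3% of isolated bins in IR64 desiccation, 38.4% in IR64 salinity and 37.9% in IR64 control, and 4.71%, 5.34% and 5.42% of bins in runs of 5 or more. Over all bins listed in all 7 libraries their share was between 14.9% and 15.4%, but in the 127388 isolated bins among these it was 42.0%, 42.6% and 42.04%. CG mCs alone were thus frequent in isolated bins of both sets. All 3 contexts were listed in 23.9%, 21.8% and 21.3% of isolated bins and in 48.9%, 43.1% and 45.0% of bins in runs of 5 or more. Isolated bins also held fewer mCs, with 8.83, 8.14 and 7.85 per bin, against 14.0, 13.04 and 13.01 in runs of 5 or more. A bin with fewer mCs can list fewer contexts, and the part of this number was not tested. CHG mCs were 36.7%, 37.0% and 37.1% of the mCs in runs of 5 or more and 24.2%, 23.9% and 23.9% of those in isolated bins. CHG without any CG mC was found in 8.10%, 8.16% and 8.13% of bins in runs of 5 or more and in 5.98%, 6.09% and 6.01% of isolated bins. Bins in runs of 2 to 4 lay between both classes, with CG alone in 14.8% to 15.5%.

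**Figure D1:**
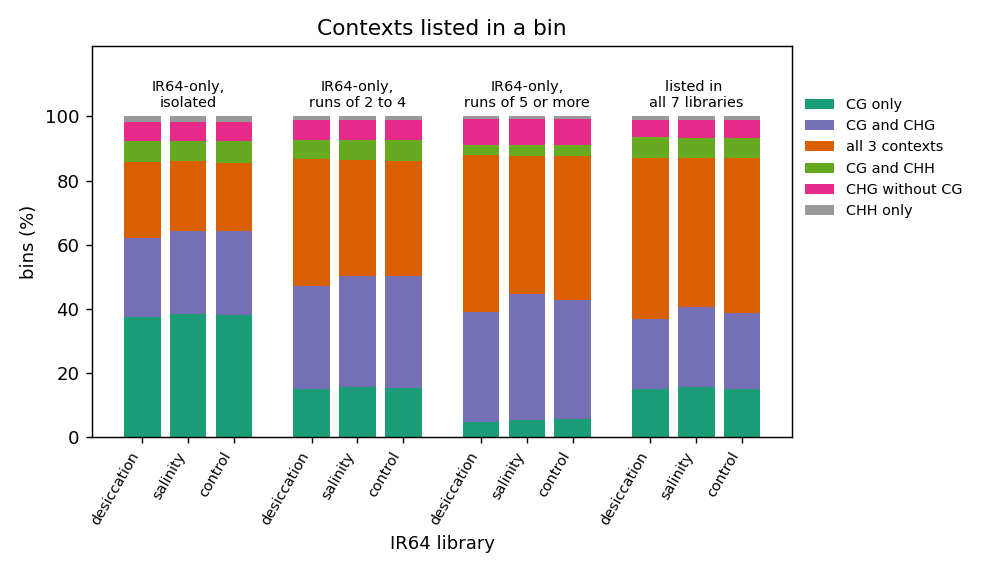
Contexts with at least 1 mC in a bin, as a percent of bins (y axis), in each IR64 library (x axis), for IR64-only bins that were isolated, in runs of 2 to 4 or in runs of 5 or more, and for bins listed in all 7 libraries. Bins with CG mCs alone made up 37.3% to 38.4% of isolated bins and 4.71% to 5.42% of bins in runs of 5 or more.

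The CG level was higher in longer runs. Isolated bins had 66.4% in IR64 desiccation, 68.1% in IR64 salinity and 64.9% (64.7 to 65.004) in IR64 control, and runs of 2 to 4 had 81.2%, 82.3% and 80.1%. Isolated bins among those listed in all 7 libraries had 83.2%, 84.2% and 83.5%. Runs of 5 or more of the IR64-only bins had 86.7%, 87.5% and 86.4% (86.3 to 86.5). This was above the bins listed in all 7 libraries taken over every run length, whose runs of 5 or more were not taken apart. Runs of 10 or more bins reached 91.9%, 92.0% and 91.7%. The CHG level followed the same order, with 58.1%, 59.1% and 57.2% in isolated bins and 63.8%, 64.8% and 64.1% in runs of 5 or more. The CHH level was highest in runs of 2 to 4 (39.6%, 41.96% and 39.05%) and lowest in runs of 10 or more (29.4%, 32.1% and 29.1%). Within runs of 5 or more, the inner bins had a CG level of 87.8%, 88.1% and 87.0%, and the first and last bins had 82.8%, 85.2% and 84.2%. The part of depth was not tested, and the mean depth in IR64 control was 13.8 in isolated bins, 12.4 in runs of 2 to 4, 14.2 in runs of 5 or more and 15.5 in runs of 10 or more.

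The low pooled CG level of isolated bins went with a broad spread of levels between bins. Over bins with 2 or more CG mCs in IR64 control, isolated bins had a 10th percentile of 32.1%, a median of 80.6% and a 90th percentile of 97.2%. In runs of 5 or more these values were 78.6%, 93.1% and 97.8%, and in bins listed in all 7 libraries they were 74.4%, 92.1% and 97.5%. A level under 60% was found in 32.7% of isolated bins, 12.6% of bins in runs of 2 to 4 and 3.94% of bins in runs of 5 or more, against 4.30% of bins listed in all 7 libraries. Levels of 80% or more were found in 51.2%, 74.2% and 89.1%, against 85.7%.

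**Figure D2:**
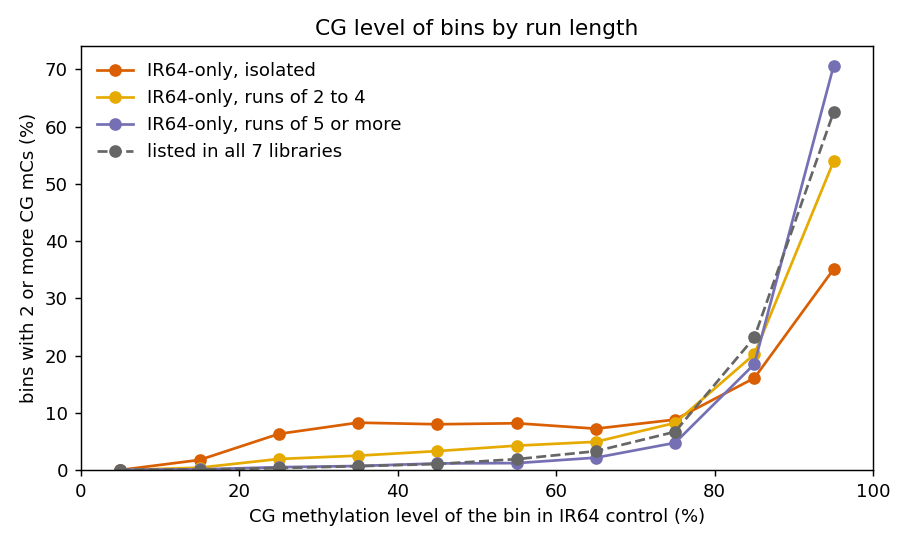
CG methylation level of bins in IR64 control (x axis, percent, in steps of 10 points) against the percent of bins with 2 or more CG mCs (y axis). Lines stand for IR64-only bins that were isolated, in runs of 2 to 4 and in runs of 5 or more, and for bins listed in all 7 libraries. Isolated bins were spread over all levels from 20% upwards, and 32.7% of them were under 60%.

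The levels of single IR64-only bins were correlated between the 3 IR64 libraries, although their range was wider than in bins listed in all 7 libraries. Over the 21420 IR64-only bins with 2 or more CG mCs in each library, Pearson's r of the CG level was 0.928 between desiccation and control, 0.924 between salinity and control and 0.928 between desiccation and salinity. These are correlations across bins placed on the same reference, given as a description. In bins listed in all 7 libraries r was 0.852, 0.844 and 0.847, over levels that were less spread. The range over the 3 libraries had a median of 6.62 points in IR64-only bins and 8.20 in the isolated ones, against 5.56 in bins listed in all 7 libraries. Of the 6505 isolated bins with 2 or more CG mCs in each library, 27.2% were under 60% in all 3 and 44.8% were at 80% or more in all 3. The same contexts were listed in all 3 libraries in 63.0% of IR64-only bins and in 67.8% of bins listed in all 7 libraries.

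The isolated bins with low and high CG levels were of different make-up. The 1770 isolated bins under 60% in all 3 libraries had a pooled CG level of 35.5% in IR64 desiccation, 36.8% in IR64 salinity and 35.5% in IR64 control, and the 2912 at 80% or more had 92.5%, 92.7% and 91.9%. CG mCs stood alone in 79.8%, 81.1% and 80.6% of the bins with low levels and in 17.1%, 18.3% and 18.2% of those with high levels. CHG mCs were listed in 13.8%, 13.4% and 14.1% of the bins with low levels and in 76.9%, 76.0% and 75.5% of the bins with high levels. The bins with low levels also held fewer mCs, with 6.17, 5.64 and 5.81 per bin, against 11.6, 10.5 and 9.84. A bin with fewer mCs can list fewer contexts, and the part of this number was not tested. The depth differed in the other direction. The bins with low levels had 19.95 reads per mC in IR64 desiccation, 16.5 in IR64 salinity and 20.05 in IR64 control, which was 1.27, 1.16 and 1.25 of the mean of the library, whereas the bins with high levels had 0.700, 0.712 and 0.702 of it. A cytosine with a low level is called more readily at high depth, and its part in this difference was not tested. In isolated bins of the set listed in all 7 libraries, which were split in the same way, depth was likewise 1.59, 1.46 and 1.47 of the mean at low levels and 0.922, 0.938 and 0.941 at high levels, but only 4.87% were under 60% in all 3 IR64 libraries. CG mCs stood alone there in 55.1%, 57.1% and 55.3% of the bins with low levels and in 48.6%, 49.2% and 48.7% of those with high levels, so that the split by context was smaller than in IR64-only bins. The numbers of mCs per bin were also closer there, with 8.37, 7.80 and 8.18 at low levels and 8.79, 8.56 and 8.40 at high levels.

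The surroundings of these isolated bins also differed. Of the 20 bins around an isolated bin with a high level, IR64 desiccation listed on average 13.7, IR64 salinity 13.4 and IR64 control 12.8, against 7.78, 7.65 and 7.72 around a bin with a low level. N22 control listed 6.95 of the 20 around bins with a high level and 5.57 around those with a low level, and Pokkali control listed 7.27 and 6.26. High isolated bins were thus set in stretches that were mostly listed in IR64, and low isolated bins in stretches that were mostly unlisted in all 3 cultivars. Over all bins IR64 control listed 45.0%, N22 control 47.7% and Pokkali control 48.6%. A mostly unlisted stretch is therefore not particular to the low isolated bins. Around them, however, each control library listed a smaller part of the 20 bins than over all bins. N22 control and Pokkali control did so around the high isolated bins as well.

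Both strands were listed evenly. The plus strand held 50.3% of the mCs of IR64-only bins in IR64 desiccation, 50.2% in IR64 salinity and 49.996% in IR64 control. A CG mC of the plus strand had its partner on the minus strand listed in 79.9%, 77.1% and 77.1% of cases, against 85.4%, 83.9% and 83.0% in bins listed in all 7 libraries. Within the IR64-only bins this share was 73.6%, 71.3% and 71.9% in isolated bins and 85.9%, 83.6% and 82.9% in runs of 5 or more. For CHG the shares were 60.5%, 59.8% and 60.5% over all IR64-only bins. The median absolute difference between both strands of a CG pair was 7.50 to 7.69 points.

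The interval without any N22 or Pokkali row around a run contains the run by construction, and its length is described. The median distance from the last row of these 4 libraries before a run to the first row after it was 649 bp for isolated bins, 1110 bp for runs of 2 to 4 and 2017 bp for runs of 5 or more. Isolated bins lay in an interval shorter than 300 bp in 29.4% of cases, and 50.5% of the runs of 5 or more lay in one longer than 2000 bp. The 25055 bins fell into 9594 distinct intervals, of which 5775 (60.2%) held a single IR64-only bin. The 197 intervals of 5 kb or more held 3935 bins (15.7%). The longest interval, chr9:10401409-10429644, measured 28.2 kb and held 41 bins in 5 runs. Coordinates are those of the deposited tables, on MSU release 7.

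Isolated bins in the shortest intervals had the highest CG level. In intervals under 300 bp it reached 79.7% in IR64 desiccation, 80.4% in IR64 salinity and 78.5% in IR64 control. Intervals from 300 to under 1000 bp had 62.9%, 64.4% and 60.98%. In those from 1000 to under 3000 bp it was 59.04%, 60.7% and 57.5%, and in those of 3000 bp or more 65.8%, 69.2% and 65.9%. Bins with CG mCs alone made up 19.6%, 19.99% and 20.3% in intervals under 300 bp and 49.8%, 51.5% and 49.9% in those from 1000 to under 3000 bp.

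The intervals with most IR64-only bins were up to 24.8 kb long. The first, chr2:25058582-25075993, held 107 bins in 11 runs, and IR64 desiccation listed 1433, IR64 salinity 1266 and IR64 control 1173 mCs in it at CG levels of 92.4%, 92.7% and 91.9%. The next, chr8:4949261-4974055, also held 107 bins, in 24 runs, with 1525, 1409 and 1354 mCs at CG levels of 86.9%, 90.7% and 88.5%. The interval chr12:15442150-15457184 held 104 bins in 14 runs, with 1697, 1467 and 1273 mCs. The interval chr6:2439645-2463341 held 92 bins and had the lowest CG levels of these, with 80.3%, 80.5% and 77.3%. The interval chr9:8260736-8279899 held 85 bins in 24 runs. These 5 intervals were chosen after their counts were seen.

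Among IR64 bins, those flanking the IR64-only runs were listed less often in N22 and Pokkali. Most of this came from other IR64-only bins, which the rule fixes as unlisted there. The part of these bins in the listing of all flanking bins was not computed. The bin next to a run cannot be IR64-only by construction, so values from 0.2 kb on are given. Among IR64 bins at 0.5 kb from a run of 5 or more, 30.4% were listed in N22 desiccation, 33.8% in N22 control, 31.6% in Pokkali salinity and 33.9% in Pokkali control. When IR64-only bins were left out, an alternative chosen after seeing the data, 482 IR64 bins remained at 0.5 kb, and the shares were 66.4%, 73.9%, 69.1% and 74.1%. At 5 kb they were 73.95%, 80.04%, 76.2% and 82.9%, and at 50 kb they were 88.5%, 89.7%, 87.2% and 88.9%. Over all IR64 bins outside the set they were 93.2%, 93.6%, 94.9% and 95.998%. Around isolated bins the shares without IR64-only bins were 75.9%, 79.4%, 79.5% and 84.7% at 0.5 kb and 89.5%, 90.7%, 91.6% and 93.2% at 50 kb. The same bin can flank several runs, and these values are a description.

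Other IR64-only bins were themselves frequent in these flanks. They made up 30.1% of the bins at 0.5 kb from a run of 5 or more, 17.5% at 5 kb and 7.02% at 50 kb, against 0.671% of all bins. Around isolated bins they made up 9.55% at 0.5 kb and 3.05% at 50 kb. IR64 itself listed more bins near the runs. IR64 control listed 68.1% of bins at 0.5 kb from a run of 5 or more and 54.5% at 50 kb, against 45.0% of all bins. The mCs that N22 and Pokkali listed in flanking bins were shallower, relative to the library mean, than those that IR64 listed. Each mean covers the bins that the library itself listed, so the bins differ between libraries. At 0.2 kb from runs of 5 or more, IR64 control listed 66.9% of bins, N22 control 22.6% and Pokkali control 21.8%. At 0.2 kb from runs of 5 or more, the mean depth at listed mCs was 0.885 of the library mean in IR64 desiccation, 0.889 in IR64 salinity and 0.908 in IR64 control, against 0.720 in N22 desiccation, 0.704 in N22 control, 0.701 in Pokkali salinity and 0.705 in Pokkali control. At 0.2 kb from isolated bins it was 0.856, 0.862 and 0.879 in the IR64 libraries, against 0.796, 0.694, 0.742 and 0.767, and N22 desiccation was closest to IR64.

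**Figure D3:**
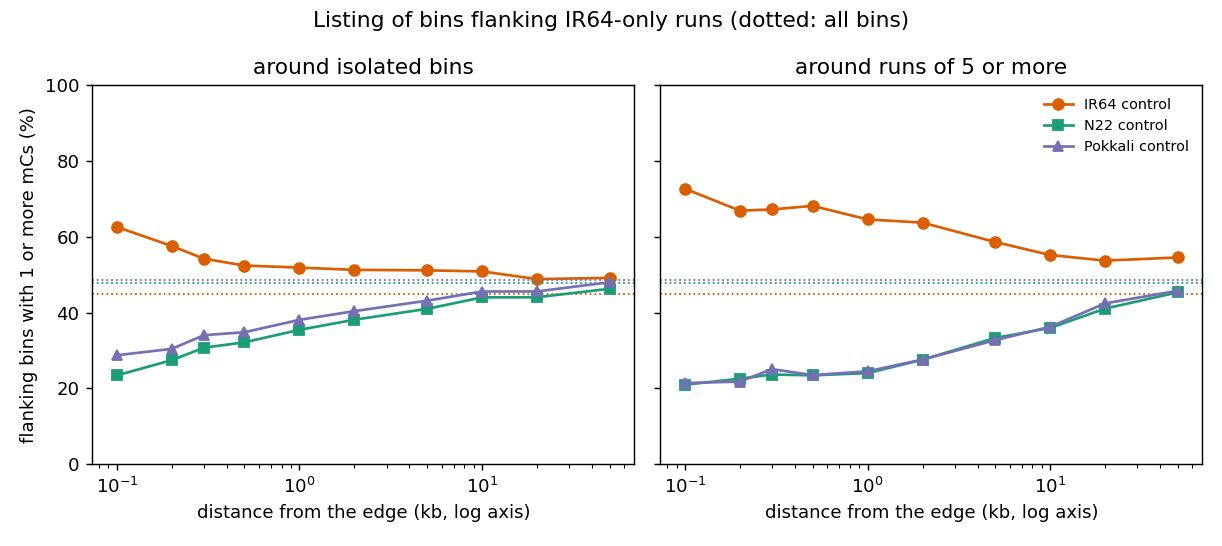
Percent of bins with 1 or more mCs (y axis) in the control libraries of IR64, N22 and Pokkali, against the distance from the edge of isolated IR64-only bins or of runs of 5 or more (x axis, kb, log scale). Dotted lines give the percent over all bins of the library. All flanking bins are counted, both other IR64-only bins and bins that are not IR64 bins. At 0.5 kb from runs of 5 or more, IR64 control listed 68.1% of bins, N22 control 23.4% and Pokkali control 23.5%.

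Few isolated bins were set between bins that all libraries listed. Only 50 of the 7753 isolated bins (0.645%) had 3 or more mCs in all 7 libraries on both sides. Their mCs were 37.7% CG in IR64 desiccation, 38.2% in IR64 salinity and 38.7% in IR64 control, against 59.1%, 59.6% and 58.9% in the other isolated bins. Their CG level was 78.0%, 77.8% and 77.0%, against 66.3%, 68.0% and 64.8%. For these bins reads of every cultivar reached the adjacent bins.

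The 3 of these bins with most mCs in IR64 control are described. The bin chr5:9697701-9697800 had 19 mCs in IR64 desiccation, 18 in IR64 salinity and 19 in IR64 control, of which 12 were CG in each, at CG levels of 94.8% (229 reads), 94.6% (185) and 94.0% (150). The preceding bin had 37, 35 and 18 mCs in these libraries, against 10 in N22 desiccation, 18 in N22 control, 4 in Pokkali salinity and 7 in Pokkali control. Its depth was lower in N22 and Pokkali (5 to 7.17 reads per mC) than in IR64 (9.43 to 10.3).

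The bin chr9:8026201-8026300 had 17, 16 and 19 mCs in IR64 desiccation, IR64 salinity and IR64 control, of which 10 were CG in each, at CG levels of 90.5%, 97.5% and 92.7%. Its preceding neighbour had 4 mCs in each library but IR64 desiccation, which had 7. The following neighbour was deep in IR64 (34.0 to 36.7 reads per mC) and in Pokkali control (58.1) and less so in N22 desiccation (17.2), N22 control (10.3) and Pokkali salinity (15.7).

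The bin chr5:15034001-15034100 had no CG mC. It had 26 mCs in IR64 desiccation, 28 in IR64 salinity and 17 in IR64 control, of which 20, 22 and 12 were CHH. The CHH level was 71.7% (64.7 to 77.7), 55.1% (48.7 to 61.3) and 75% (66.7 to 81.8), and the CHG level was 79.3%, 82.4% and 91.7%. The following bin had 24, 22 and 22 mCs in the IR64 libraries, of which 21, 19 and 21 were CHH, whereas N22 desiccation listed 7 mCs, N22 control 3, Pokkali salinity 3 and Pokkali control 11 there.

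The 5 longest runs are described. By the rule, every bin of a run is listed in all 3 IR64 libraries and has no mC in N22 or Pokkali. The longest, chr11:24856201-24864000, spanned 78 bins (7.8 kb) with 951 mCs in IR64 desiccation, 930 in IR64 salinity and 910 in IR64 control. Its CG level was 93.8% (93.2 to 94.4), 93.2% (92.5 to 93.9) and 92.2% (91.5 to 92.9), its CHG level 65.6%, 69.4% and 66.8%, and its CHH level 34.8%, 38.3% and 36.3%. The interval without N22 and Pokkali rows was 8.29 kb, little longer than the run. On its left side 6 of 10 bins were listed in both N22 libraries and none in Pokkali, and on its right side 4 were listed in N22 desiccation, N22 control and Pokkali control and 3 in Pokkali salinity.

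The run chr12:15449001-15454600 spanned 56 bins and was rich in CHG. Of its 659 mCs in IR64 desiccation, 632 in IR64 salinity and 597 in IR64 control, 439, 435 and 417 were CHG and 166, 158 and 132 were CG. The CHG level was 78.7% (77.7 to 79.6), 79.6% (78.6 to 80.6) and 78.6% (77.7 to 79.5). Its CHH mCs were few (54, 39 and 48). The N22 and Pokkali libraries listed nothing in the 10 bins on either side.

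The run chr2:25064501-25068700 spanned 42 bins, with 453 mCs in IR64 desiccation, 423 in IR64 salinity and 422 in IR64 control and CG levels of 91.6%, 92.4% and 92.1%. It lay inside the interval of 17.4 kb described above, and all 10 bins on each side were listed in the IR64 libraries and none in the others. The run chr10:19884101-19888100 spanned 40 bins and was the deepest, with 27.3 reads per mC in IR64 desiccation, 20.1 in IR64 salinity and 24.0 in IR64 control. Its CG level was 86.4%, 86.3% and 86.6% and its CHH level 21.0%, 24.2% and 21.3%. It ended sharply on the left, where none of the 7 libraries listed any of the 10 bins.

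The run chr8:5704201-5707800 spanned 36 bins and was dense, with 903 mCs in IR64 desiccation, 849 in IR64 salinity and 752 in IR64 control. Its CG level was 87.8% (87.0 to 88.6), 87.8% (86.9 to 88.6) and 89.6% (88.7 to 90.5). Its sides were unlike each other. On the left N22 desiccation listed 9, N22 control 10 and each Pokkali library 8 of 10 bins, and on the right these libraries listed none, while IR64 listed 9 or 10.

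The IR64-only bins were spread unevenly over the chromosomes. Chromosome 5 held 5076 of them (20.3%), which was 4.50% of its IR64 bins, followed by chromosome 12 with 2711 (3.39% of its IR64 bins) and chromosome 9 with 2677 (3.55%). The fewest were on chromosome 3, with 835 (0.751%), and chromosome 1 held 1432 (1.19%). Per Mb there were 169 on chromosome 5 and 22.9 on chromosome 3. The other cultivar-only sets were distributed otherwise. Chromosome 5 held 20.3% of the IR64-only bins, against 3.33% of the N22-only and 3.65% of the Pokkali-only bins. Chromosome 1 held 5.72% of the IR64-only bins, against 14.2% of the N22-only and 12.6% of the Pokkali-only bins. Runs of 5 or more held 42.1% of the IR64-only bins on chromosome 9 and 13.1% on chromosome 3. The share showed no steady trend with the distance to the chromosome ends. The IR64-only bins were 2.29% of the IR64 bins within 2 Mb of an end, 2.74% at 2 to 5 Mb, 2.31% at 5 to 10 Mb and 1.76% farther inside.

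**Figure D4:**
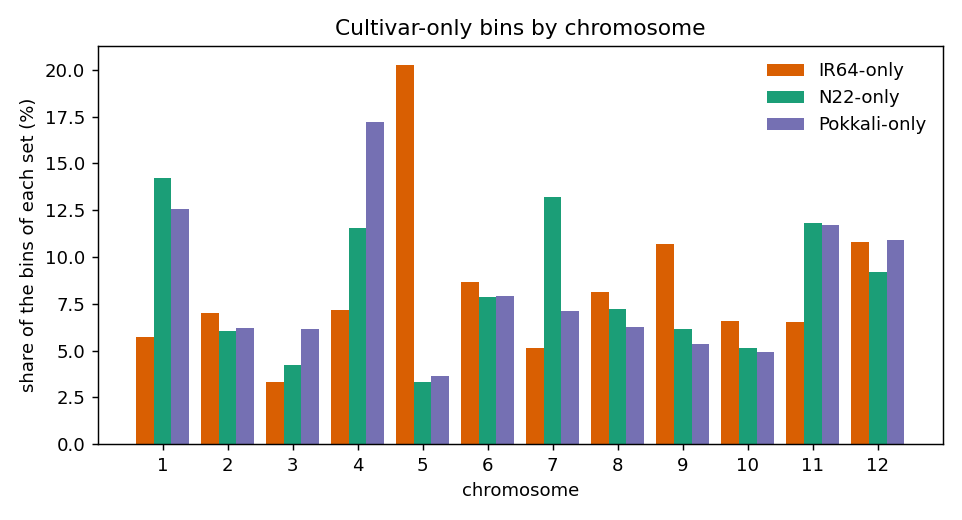
Share of the IR64-only, N22-only and Pokkali-only bins (y axis, percent of each set) on each of the 12 chromosomes (x axis). Chromosome 5 held 20.3% of the IR64-only bins, 3.33% of the N22-only bins and 3.65% of the Pokkali-only bins.

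Within chromosomes the IR64-only bins were concentrated in few windows of 1 Mb. The median window held 23 (quartiles 14 and 55), and 2 of 380 windows held none. The 10 windows with most held 25.4% of all IR64-only bins, and 35 windows (9.21%) held 50%. Runs of 5 or more were more concentrated than isolated bins. They occurred in 167 windows (43.9%), and 20 windows held 50% of their bins, whereas 50% of the isolated bins needed 68 windows. Across the 380 windows, Spearman's rho of the number of IR64-only bins was -0.07 with N22-only and 0.23 with Pokkali-only bins. Windows share the reference and its repeats, and these values are a description.

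**Figure D5:**
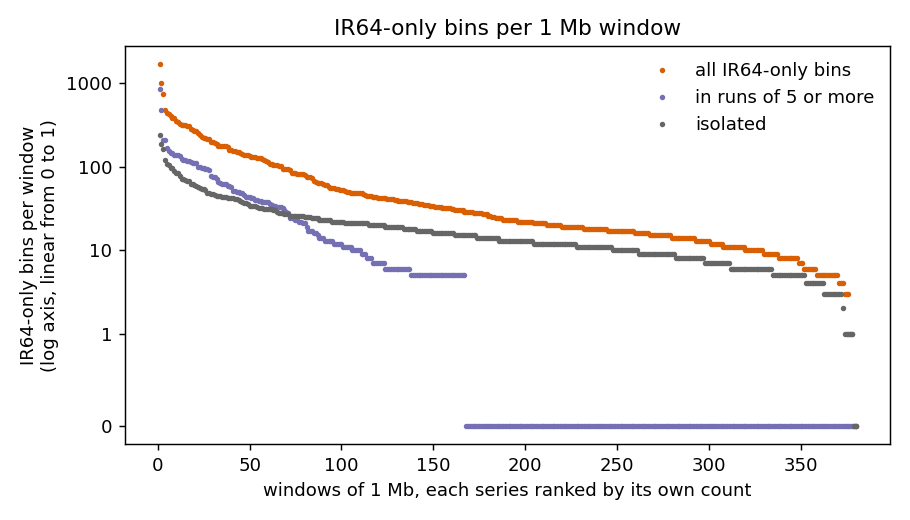
Number of IR64-only bins in each of 380 windows of 1 Mb (y axis, log scale, linear from 0 to 1), ranked from the window with most (x axis), for all IR64-only bins, those in runs of 5 or more and isolated bins, each ranked by its own count. Runs of 5 or more were found in 167 windows.

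The window chr9:8000001-9000000 held most, both by number and by share. It had 1710 IR64-only bins (6.82% of all), which was 32.7% of its 5235 IR64 bins, and 868 of them were in runs of 5 or more. Their CG level in IR64 control was 89.9%. N22-only and Pokkali-only bins there numbered 31 and 17. The next windows by number were adjacent to each other, chr5:12000001-13000000 with 1025 IR64-only bins (14.8% of its IR64 bins) and chr5:11000001-12000000 with 744 (13.1%). By share the window chr8:4000001-5000000, with 432 IR64-only bins (14.6%), ranked between these windows of chromosome 5.

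Within the window of chromosome 9 the IR64-only bins lay in separate blocks. Of the 10 pieces of 100 kb, the piece from 8300001 to 8400000 had most, with 463 of 683 IR64 bins (67.8%). It was followed by the pieces starting at 8700001 with 55.8%, at 8200001 with 55.3% and at 8800001 with 52.4%. The pieces starting at 8100001 and 8900001 had 5.22% and 3.52%. In the piece with most, IR64 control listed 9454 mCs, N22 control 1271 and Pokkali control 829. In the piece starting at 8900001 they listed 5278, 4941 and 2553. Bins listed in all 7 libraries numbered 42 in the piece with most and 194 in the piece starting at 8900001. Over the genome, 1144 of 3740 pieces of 100 kb held no IR64-only bin.

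Few IR64-only bins were called as different in level between the IR64 libraries. The rule kept only bins listed in all 3 IR64 libraries, and the test used only mCs listed in both libraries. A bin or cytosine that lost its listing in an IR64 library could therefore not be called, and the few calls do not measure how stable methylation was. For a pair of libraries, reads were pooled at the mCs that both listed. Fisher's exact test, two-sided, was run on bins with 3 or more shared mCs, and bins with a difference of 20 points or more and a Benjamini-Hochberg adjusted p of 0.01 or less over all tested bins were called differentially methylated. With a single library per group the test compares the reads of 2 libraries, not conditions, and a read is counted at each mC it covers, so that its p-values can be too small. The Wilson intervals on shares of called bins count bins as independent. Neighbouring bins can share reads, so these intervals can be too narrow.

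Between IR64 desiccation and IR64 control, 24 of 23754 tested IR64-only bins were called (0.101%, 95% Wilson interval 0.0679 to 0.150), against 0.0628% of all 1159728 tested bins. Desiccation was higher in 18 and lower in 6, where the shares over all tested bins were 0.038% and 0.0247%. Between IR64 salinity and IR64 control, 32 of 23311 were called (0.137%, 0.0973 to 0.194), against 0.0528% of 1145871, with 26 higher and 6 lower in salinity and shares over all tested bins of 0.0331% and 0.0197%. Between IR64 desiccation and IR64 salinity, 27 of 23719 were called (0.114%, 0.0782 to 0.166), against 0.049% of 1178459, with 15 higher and 12 lower in desiccation and shares over all tested bins of 0.0243% and 0.0247%. With all contexts pooled the share of calls was above that of all tested bins in each pair, although it concerned few bins, and the pairs share libraries. From CHH mCs alone it was 0.348%, 0.504% and 0.388% of the IR64-only bins, against 0.389%, 0.418% and 0.388% of all tested bins. At an unadjusted p under 0.05 the shares were 8.60%, 7.94% and 7.91% of the IR64-only bins, against 6.93%, 6.77% and 6.84% of all tested bins. The median difference in IR64-only bins was 0.368 points for desiccation minus control, 0.580 for salinity minus control and -0.245 for desiccation minus salinity, against 0.176, 0.441 and -0.266 over all tested bins. At a minimum depth of 10 reads, 18 IR64-only bins were called between desiccation and control (0.121% of those tested, against 0.0562% of all tested bins), 11 between salinity and control (0.0798%, against 0.0461%) and 14 between desiccation and salinity (0.0987%, against 0.0453%).

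Among called IR64-only bins with 50 or more reads in each library, the shared mCs were all CG in 3 of the 6 bins with the largest differences. At chr5:8627201-8627300 the 8 shared CG mCs had a level of 92.3% of 143 reads in IR64 desiccation and 38.5% of 52 reads in IR64 control (adjusted p of Fisher's exact test 2.57e-10). Over all its listed mCs IR64 salinity had 89.7% of 126 reads there and IR64 control 59.8% of 82 reads. At chr9:12545801-12545900, 4 shared CG mCs had 40.2% of 97 reads in IR64 desiccation and 71.0% of 107 reads in IR64 control (adjusted p of Fisher's exact test 0.00829), and IR64 salinity had 78.4% of 74 reads.

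Between salinity and control, the bin chr2:24725301-24725400 had 92.0% of 50 reads in IR64 salinity and 42.9% of 63 reads in IR64 control over 6 CG and 2 CHG mCs (adjusted p of Fisher's exact test 9.1e-05). Over all listed CG mCs its level was 90.6% in IR64 desiccation, 94.7% in IR64 salinity and 50% in IR64 control. Over listed mCs of all contexts it was 71.8%, 81.0% and 45.9%, from 15, 10 and 14 mCs. These need not be the same cytosines in each library. The bin chr5:12102801-12102900 had 31.1% of 132 reads in IR64 salinity and 63.8% of 80 reads in IR64 control (adjusted p of Fisher's exact test 0.00458), over 5 CG and 5 CHG mCs. Its CG level over all listed mCs was 48.7% in IR64 desiccation, 32.4% in IR64 salinity and 73.7% in IR64 control.

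Between desiccation and salinity, the bin chr1:19327501-19327600 had 17 shared CG mCs with 97.7% of 128 reads in IR64 desiccation and 50% of 114 reads in IR64 salinity (adjusted p of Fisher's exact test 3.06e-14). Over its own 8 listed mCs IR64 control had 77.5% of 40 reads, between both. The bin chr5:12184901-12185000 had 25.9% of 166 reads in IR64 desiccation and 70.5% of 61 reads in IR64 salinity (adjusted p of Fisher's exact test 1.64e-05). Its shared mCs were 3 CG and 6 CHG. IR64 control had 25.8% of 62 reads over its own 8 listed mCs, which need not be the same cytosines. The CG level over all listed mCs was 24.1% in IR64 desiccation, 81.5% in IR64 salinity and 25.8% in IR64 control. Of these 6 bins 3 were isolated and the others were in runs of 2 or 3 bins.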

How the data were processed

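Bisulphite libraries of IR64, N22 and Pokkali seedlings were analysed, 1 per cultivar and condition. In the control libraries, paired-end reads were mapped by the authors to the MSU release 7 genome with Bismark, unique, non-clonal reads were kept, and mCs were called with methylKit by a binomial test at p 0.001 and at least 5 reads. The same tools are named for the stressed libraries, with no further detail in the labels or the paper. The authors deposited the read depth of each mC as a count and its methylation level as a percent, without normalization.

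Methylated reads were recovered as depth times level and, rounded to whole reads, gave back every deposited level within 0.0051 points. Bins of 100 bp, runs, contexts, levels and flanks were computed in Python 3.11.15 with numpy 2.4.6, pandas 2.3.3 and numba 0.67.0. Wilson intervals (statsmodels 0.14.6) are at 95% and cover counting error only, as reads are not independent molecules. Fisher's exact test was tested on simulated data. Named items were the 5 longest runs, the 3 isolated bins with most mCs between bins listed in all 7 libraries, the 3 windows with most and with the highest share (500 or more IR64 bins), and the largest differences each way. Members and lists were chosen with earlier results of these data known. Other row minimums, depths, grids, calling rates, libraries and call limits were tried. Genes and sequences were not analysed here, as no genome or annotation of this build was used.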

Additional observations from a re-analysis of the deposited data

Results flagged for a closer look

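The unanchored sequences ChrUn and ChrSy, which were outside the 12 chromosomes analysed, held 50 bins that met the same rule, with 3 or more mCs in all 3 IR64 libraries and none in N22 and Pokkali. Of these, 37 were among the 1682 IR64 bins of ChrSy and 13 among the 2657 of ChrUn. Over both sequences 50 of 4339 IR64 bins met the rule, against 25055 of 1159692 (2.16%) on the 12 chromosomes. The rule was thus met no more often over both unanchored sequences than on the chromosomes. The 50 bins were singled out only because they lay in data that the comparisons did not use. Whether N22 and Pokkali lack the sequence, its coverage or its methylation there cannot be told apart.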

How the results depend on the processing

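No paired analysis was possible because each group had 1 library. Both differences below kept their sign under each alternative. The number of IR64-only bins was 43640 with a minimum of 1 mC per IR64 library, 14314 with IR64 mCs of 10 or more reads, 14370 in bins of 200 bp and 39786 from the control libraries alone, and 26218 to 31087 without 1 library in turn. The CG level of IR64-only bins minus that of bins listed in all 7 libraries (-7.17 points in IR64 control) was -3.83 with a minimum of 5 mCs, -12.8 with 1 mC, -9.06 with IR64 mCs of 10 or more reads, -8.36 with up to 2 rows in N22 and Pokkali, -7.76 in bins of 200 bp, -6.61 in bins shifted by 50 bp, -5.15 after calling at an error rate of 0.01, -10.3 from the control libraries alone, -9.07 without depths above the 99th percentile, and -8.06 to -6.41 without 1 library in turn. The difference in CG share (5.62 points) was 5.27 with 5 mCs, 7.15 with 1 mC, 4.65 with 10 or more reads, 5.97 with up to 2 rows in N22 and Pokkali, and 5.45 to 5.93 without 1 library in turn.

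Calls among IR64-only bins for desiccation/control, salinity/control and desiccation/salinity were 13, 19 and 14 from CG alone (0.0747%, 0.112% and 0.0799% of those tested, against 0.0365%, 0.0204% and 0.0187% of all tested bins), 3, 2 and 0 from CHG alone (0.029%, 0.0202% and 0%, against 0.00872%, 0.00314% and 0.000747%), 11, 15 and 12 from CHH alone (0.348%, 0.504% and 0.388%, against 0.389%, 0.418% and 0.388%), 9, 20 and 7 at 30 points (0.0379%, 0.0858% and 0.0295%, against 0.0192%, 0.0153% and 0.0134%), and 5, 3 and 8 with a Bonferroni adjustment (0.021%, 0.0129% and 0.0337%, against 0.014%, 0.00873% and 0.00696%). At 10 points desiccation/control gave 41 (0.173%, against 0.108%), and at a minimum of 10 reads salinity/control gave 11 and desiccation/salinity 14. The causes were not tested, beyond the fewer mCs tested per context. IR64-only bins were shallow, at 11.9 to 13.4 reads per mC, so single mCs carry wide intervals. An mC under 5 reads is not listed, and 1 library per group gives no spread between replicate libraries.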
